A study of Homo sapiens with 12 samples.

Results

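The unfolded protein and ATF4 response genes are 44 genes that cells use when proteins misfold in the endoplasmic reticulum (ER) or when amino acids run short. They were taken by symbol from a list of known pathway genes, drawn up with earlier results of these data known, and all 44 were found among the 13001 genes of the deposited count table. They were sorted by role into 13 ER chaperones and folding enzymes, 13 ATF4 amino acid genes, 11 transcription factors and ATF4 effectors, 4 genes of the ER stress sensors and XBP1, and 3 genes of ER-associated degradation.

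The ER watches its own load of unfolded protein through 3 membrane sensors. IRE1 (ERN1) splices the mRNA of XBP1, ATF6 is cut loose as a transcription factor, and together these raise chaperones such as HSPA5 (BiP). PERK (EIF2AK3) phosphorylates eIF2, as do kinases that sense amino acid shortage, and this favours translation of ATF4, which turns on genes for making, importing and charging amino acids. In prostate cancer cells, which secrete large amounts of protein, both branches are known to be active.

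The study asked how SRRM4, a neural splicing factor, and LSD1+8a, the splice form of the histone demethylase LSD1 (KDM1A) that carries exon 8a, act in prostate cancer. LNCaP cells, a line from a prostate cancer lymph node metastasis, were transfected at passage 8 with a plasmid for SRRM4, LSD1+8a or LSD1, or with the empty vector, 3 libraries for each of the 4 groups. All 12 samples had Lipofectamine 2000, a medium change after 6 hours and RPMI 1640 with 10% FBS, and polyA RNA was sequenced. The transfections were transient, so a library can mix cells with and without plasmid, and the time of harvest is not given in the sources used here. No label says whether a group's 3 libraries are separate transfections or 1 sample prepared 3 times. The p-values therefore measure only the spread between these libraries.

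Library totals were 10876293 to 11485489 counts with SRRM4, 12110101 to 13359671 with LSD1+8a, 11658730 to 12565335 with LSD1 and 12750609 to 13570740 with the empty vector. KDM1A averaged 96.3 ± 4.06 CPM (counts scaled to a common library size) with SRRM4, 2268 ± 316 CPM with LSD1+8a and 540 ± 40.5 CPM with LSD1, against 94.3 ± 0.828 CPM with the empty vector (SD, n = 3 each). These are gene totals, in which exon 8a is not seen, and the SRRM4 transcript itself was not analysed here. The 10 luminal markers of LNCaP used (KLK3, KLK2 and others) were all measured, and they summed to 5858 to 5909.8 TPM (transcript abundance per length and library) with SRRM4, 6389 to 6601 TPM with LSD1+8a, 6637 to 6828 TPM with LSD1 and 6416 to 6503 TPM with the empty vector. Mitochondrial genes took 6.63% to 6.89% of counts with SRRM4, 6.64% to 7.12% with LSD1+8a and 6.38% to 6.67% with LSD1, against 7.21% to 7.40% with the empty vector. The SRRM4 libraries thus had the lowest luminal marker sums as well as the smallest totals, and the part of these measures in the results was not tested. In bulk RNA, fewer cells of a type and less RNA per cell cannot be told apart. The basal marker measured (KRT14, 1 of 3) had 2.81 to 3.31 TPM with SRRM4, 2.65 to 3.38 TPM with LSD1+8a and 2.61 to 2.94 TPM with LSD1, against 2.06 to 2.44 TPM with the empty vector, low levels at which the empty-vector libraries were the lowest 3. Fibroblast markers (2 of 6 measured) summed to 7.62 to 11.3 TPM over all libraries, and leukocyte and endothelial markers (2 of 7 measured) to 6.22 to 11.0 TPM.

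The branches of the response are known to act through different DNA elements, which were searched for in the sequences just before the gene starts. ATF6 with NF-Y binds the ER stress element, searched here as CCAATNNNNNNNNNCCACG, and ATF4 with a C/EBP partner binds the C/EBP-ATF element, searched as TGATGNAA, on both strands of the 250 bases before each start. RefSeq promoters (build GRCh38.p14) were matched for 38 of the 44 genes. The submitters' processing notes name hg19 and the count table holds no coordinates, so these positions belong to GRCh38.p14 alone. Below are 3 chaperone promoters and 1 promoter of an amino acid gene, each 5′ to 3′ along the gene's strand, with the fixed letters of the element in capitals. They are HSPA5 (chr9:125241344-125241593, minus strand), HSP90B1 (chr12:103930160-103930409, plus strand), CALR (chr19:12938359-12938608, plus strand) and ASNS (chr7:97872409-97872658, minus strand).
HSPA5: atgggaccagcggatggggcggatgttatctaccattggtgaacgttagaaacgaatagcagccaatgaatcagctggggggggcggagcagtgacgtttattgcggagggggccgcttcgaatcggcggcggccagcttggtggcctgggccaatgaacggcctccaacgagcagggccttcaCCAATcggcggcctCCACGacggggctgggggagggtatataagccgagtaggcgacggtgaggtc
HSP90B1: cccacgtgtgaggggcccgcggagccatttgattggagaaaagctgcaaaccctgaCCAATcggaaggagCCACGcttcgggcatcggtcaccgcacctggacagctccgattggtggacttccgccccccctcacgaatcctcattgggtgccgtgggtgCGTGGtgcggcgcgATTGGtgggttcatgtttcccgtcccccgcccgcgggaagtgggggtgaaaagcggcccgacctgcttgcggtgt
CALR: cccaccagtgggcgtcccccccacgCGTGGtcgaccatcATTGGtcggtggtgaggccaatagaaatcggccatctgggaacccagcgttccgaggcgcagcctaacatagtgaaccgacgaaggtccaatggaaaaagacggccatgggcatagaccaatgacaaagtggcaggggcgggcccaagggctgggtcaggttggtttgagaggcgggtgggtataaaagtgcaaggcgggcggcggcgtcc
ASNS: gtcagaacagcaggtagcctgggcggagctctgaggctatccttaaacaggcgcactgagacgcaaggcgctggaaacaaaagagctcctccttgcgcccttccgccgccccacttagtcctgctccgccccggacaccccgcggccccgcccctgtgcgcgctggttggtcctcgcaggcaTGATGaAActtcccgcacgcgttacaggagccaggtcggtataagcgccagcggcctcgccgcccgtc

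The ER stress element stood 66 to 48 bases before the start of HSPA5, and 194 to 176 (plus strand of the gene) and 89 to 71 (opposite strand) bases before that of HSP90B1. In CALR it stood on the opposite strand, 225 to 207 bases before the start. The C/EBP-ATF element of ASNS, the asparagine synthetase gene, lay 68 to 61 bases before the start, and a second ASNS start in the table had no match. Over all members, 7 of 38 genes (18.4%) held the ER stress element, against 25 of 27305 genes of the table (0.0916%). They were 6 of 12 chaperone genes (HSPA5, HSP90B1, PDIA6, CALR, CANX and CRELD2) and XBP1, and 0 of 9 amino acid genes. The C/EBP-ATF element was in 5 of 38 genes (13.2%, namely ASNS, GARS, CEBPG, CHAC1 and HERPUD1), against 1061 of 27305 genes (3.89%), and in 0 of 12 chaperone genes. A gene was counted when any of its starts held a match. Like ASNS, the genes PDIA6, CANX, XBP1, GARS and CEBPG also had starts without a match. A match describes these letters only. The members were listed as known genes of these pathways, so their higher shares are no result of the libraries. HSPA5 and ASNS were printed whether called or not, and HSP90B1 and CALR because they were called and held a match. The calls of HSP90B1 and CALR thus say nothing about the element. With SRRM4 against the empty vector, HSP90B1, CALR and ASNS were lower, and HSPA5, with its element, was not called. The other members with a match (PDIA6, CANX, CRELD2, XBP1, GARS, CEBPG, CHAC1 and HERPUD1) were not called in that comparison. Called members besides HSP90B1, CALR and ASNS had no match.

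In the empty-vector libraries the module spanned over 2 orders of magnitude on the TPM scale, which corrects for transcript length. CALR (calreticulin, a lectin chaperone) was highest at 945 ± 10.7 TPM, followed by PDIA3 (a disulfide isomerase that works with it) at 614 ± 21.0 TPM (SD, n = 3). ATF4 itself had 550 ± 8.10 TPM and HSP90B1 (GRP94, the ER form of HSP90) 535 ± 9.94 TPM, and the libraries of these neighbours overlapped. The ATF4 target TRIB3, a pseudokinase, had 113 ± 7.06 TPM and the pro-apoptotic factor DDIT3 (CHOP) a mean of 98.8 TPM. The 3 membrane sensors ATF6, ERN1 and EIF2AK3 stood at 13.8, 13.5 and 13.4 TPM, an order that their spread does not separate. PPP1R15A (GADD34, which leads the phosphatase to eIF2) was lowest at 4.37 ± 0.703 TPM, just below SLC7A5, a leucine transporter, at 5.78 ± 0.754 TPM, and their libraries overlapped.

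**Figure D1:**
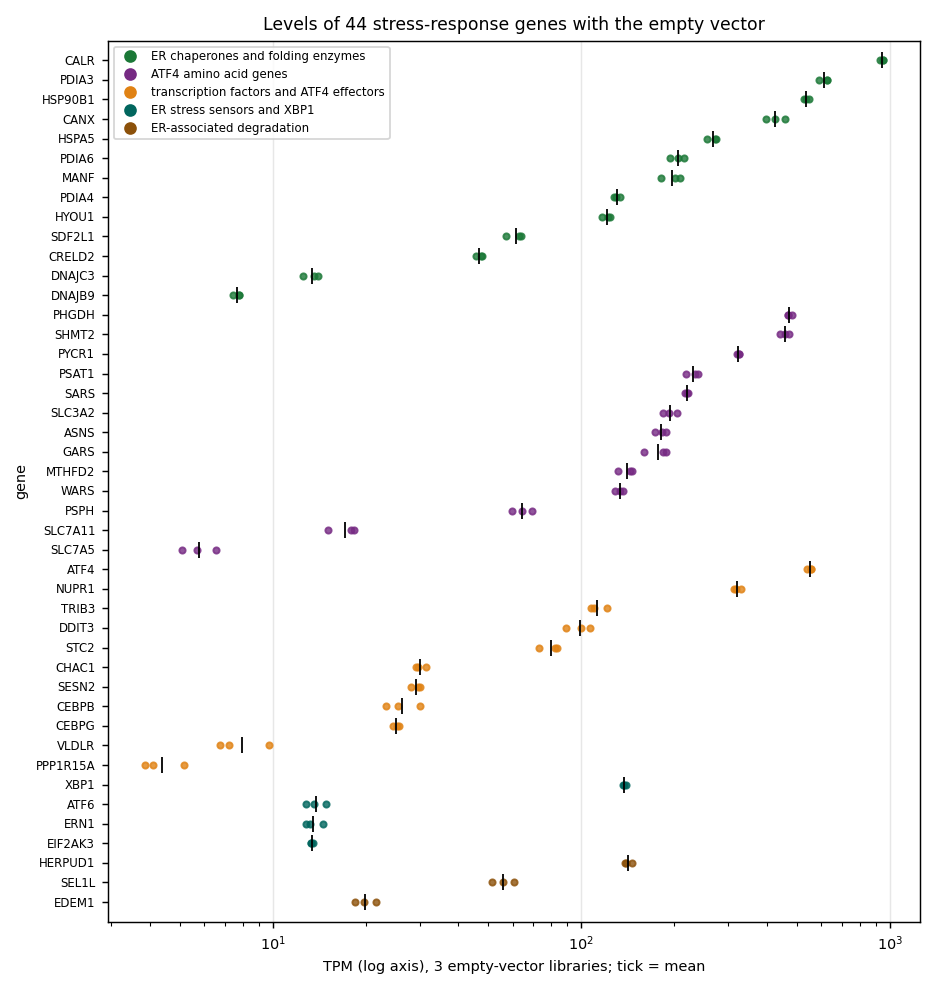
Level of each of the 44 genes in TPM (log axis) in the 3 empty-vector libraries, with the mean as a tick, coloured by role and ordered by level within each role. CALR leads at 945 TPM, the 3 membrane sensors lie near 13 TPM, and PPP1R15A is lowest at 4.37 TPM.

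With SRRM4, a set of these genes was lower by small amounts and a pair was higher. Against the empty vector, 14 of 44 genes passed an adjusted p of 0.05 in edgeR's quasi-likelihood test, 2 higher (SESN2 and PPP1R15A) and 12 lower. The 14 are 31.8% of the module. Of all 13001 genes, 7.68% were called, 4.47% higher and 3.22% lower. The members were not matched to all genes by abundance, and its part in these shares was not tested. HSP90B1, at 1058 CPM with the empty vector, was called at a log2 fold change of -0.13. SLC7A5, at 17.5 CPM, was not called at -0.22. The module's median log2 fold change was -0.075, against -0.0011 over all genes. Of the 44 values, 36 were below 0, as were 50.4% of those of all genes. In 23 of the 44 genes all 3 SRRM4 libraries lay below all 3 empty-vector libraries, as in 12.3% of all genes, and in 2 they lay above, as in 13.0% of all genes. Set against all 9 other libraries, the 3 SRRM4 libraries were lowest for 11 members and highest for 1 (SESN2), as for 4.86% and 5.8% of all genes. On log2(TPM + 1) with limma-trend, 3 calls were left, PHGDH and TRIB3 lower and SESN2 higher. The share of all genes called in that fit was not counted here, so these 3 have no share to be set against.

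**Figure D2:**
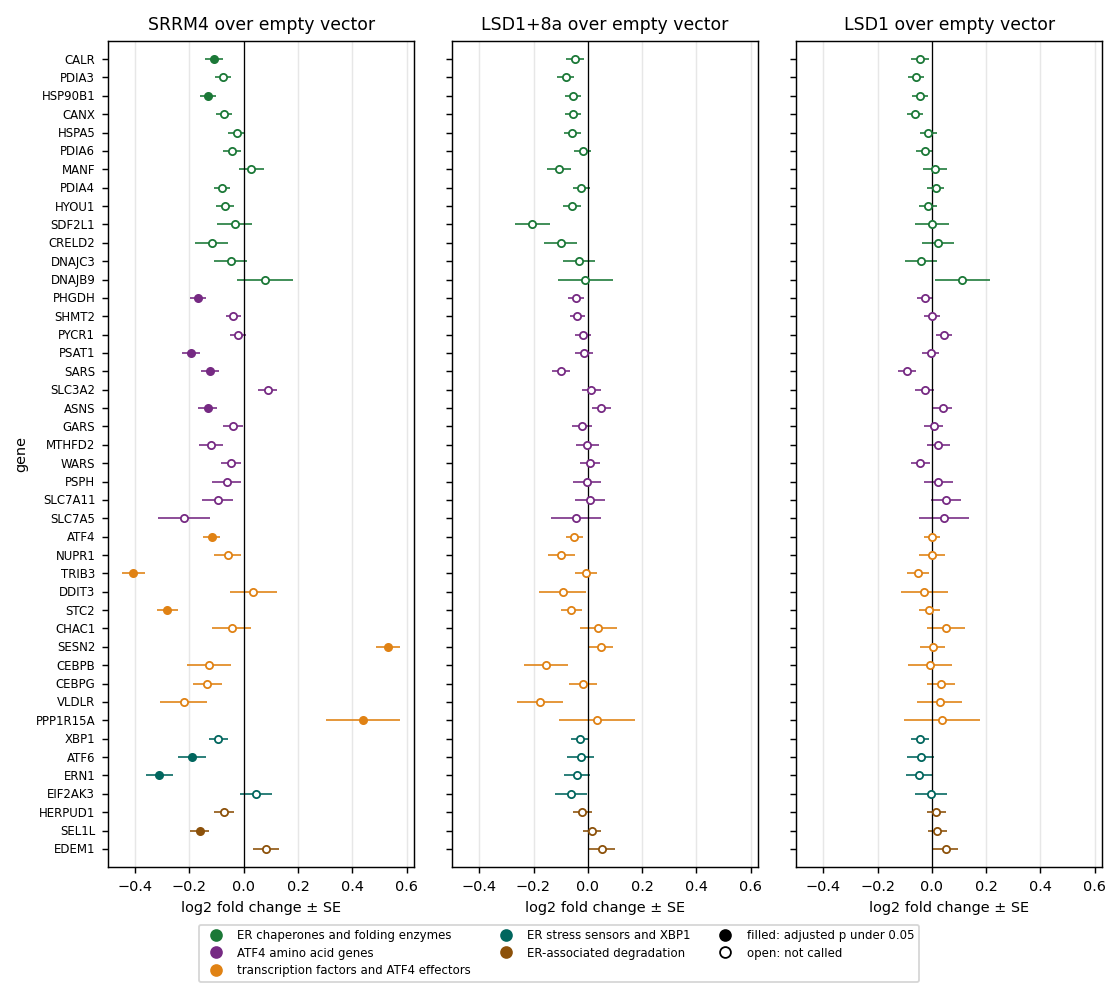
Log2 fold change ± SE of each member over the empty vector, with SRRM4, LSD1+8a and LSD1 from left to right, where filled points have an adjusted p under 0.05. The 14 filled points are all in the SRRM4 panel, with SESN2 at 0.53 and TRIB3 at -0.41 as its extremes, and the 3 panels share the empty-vector libraries.

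The largest changes were among the effectors of ATF4. TRIB3, which feeds back on ATF4, had 151, 146 and 159 CPM in SRRM4 libraries, against 194, 202 and 205 CPM with LSD1+8a, 191, 189 and 203 CPM with LSD1 and 197, 215 and 191 CPM with the empty vector. The SRRM4 libraries lay below all others. The log2 fold change of TRIB3 was -0.41 ± 0.042 over the empty vector (SE; adjusted p = 3.33e-08), -0.40 over LSD1+8a and -0.36 over LSD1 (adjusted p = 7.5e-08 and 7.4e-07), comparisons that share the SRRM4 libraries. SESN2 (sestrin 2, a leucine sensor that restrains mTORC1 and a target of both ATF4 and p53) had 105, 113 and 111 CPM with SRRM4, against 75.4, 78.7 and 81.0 CPM with LSD1+8a, 78.0, 73.2 and 76.5 CPM with LSD1 and 77.4, 77.2 and 72.6 CPM with the empty vector. It was the 1 member with the SRRM4 libraries above all others. Its log2 fold change was 0.53 ± 0.044 over the empty vector (adjusted p = 3.4e-11), 0.48 over LSD1+8a and 0.53 over LSD1 (adjusted p = 5.08e-10 and 6.46e-11). STC2, a secreted glycoprotein made under ER stress, had 130.4, 125 and 137 CPM with SRRM4, against 153, 147 and 157 CPM with LSD1+8a, 159, 152 and 163 CPM with LSD1 and 157, 163 and 157 CPM with the empty vector. Again the SRRM4 libraries were the lowest 3, and STC2 changed by -0.28 ± 0.039 (log2, SE) over the empty vector (adjusted p = 3.03e-06), -0.22 over LSD1+8a and -0.27 over LSD1 (adjusted p = 0.000203 and 7.77e-06).

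ATF4, the transcription factor, was modestly lower at the RNA level. It had 486, 517 and 509 CPM with SRRM4, against 529, 535 and 521 CPM with LSD1+8a, 569.6, 526 and 545 CPM with LSD1 and 547, 543 and 550.3 CPM with the empty vector. All SRRM4 libraries lay below the rest, though the gap to the lowest LSD1+8a library was small. ATF4 fell with SRRM4 relative to the empty vector (log2 fold change -0.12 ± 0.031, adjusted p = 0.0146) and LSD1 (-0.12, adjusted p = 0.0154), and was not called against LSD1+8a (-0.068, adjusted p = 0.201). The call over the empty vector ended without SRRM4 library 1 (adjusted p = 0.133) or empty-vector library 1 (adjusted p = 0.053), and the call over LSD1 without SRRM4 library 1 (adjusted p = 0.131) or LSD1 library 1 (adjusted p = 0.126).

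PPP1R15A had 8.59, 11.4 and 10.3 CPM with SRRM4, against 8.16, 7.85 and 6.81 CPM with LSD1+8a, 8.37, 6.64 and 7.85 CPM with LSD1 and 6.87, 9.02 and 6.39 CPM with the empty vector. The SRRM4 and empty-vector libraries overlapped. It rose over the empty vector by 0.44 ± 0.137 on the log2 scale (adjusted p = 0.0412), and was not called over LSD1+8a (0.41, adjusted p = 0.0636) or LSD1 (0.40, adjusted p = 0.0721). DESeq2 did not call it (adjusted p = 0.17), and the edgeR call ended without SRRM4 library 2 (0.213) or 3 (0.117) or empty-vector library 1 (0.15) or 3 (0.187), all as adjusted p. DDIT3, the best known stress marker of the branch, had 62.4, 57.0 and 56.0 CPM with SRRM4, against 50.9, 56.1 and 53.7 CPM with LSD1+8a, 58.0, 48.2 and 61.7 CPM with LSD1 and 57.3, 62.4 and 51.5 CPM with the empty vector. Its libraries overlapped between SRRM4 and the empty vector, and the difference was 0.035 ± 0.086 on the log2 scale (adjusted p = 0.874). The glutathione-degrading enzyme CHAC1, the stress regulator NUPR1, the factors CEBPB and CEBPG, and the lipoprotein receptor VLDLR were not called either. In all, 2 of the 11 genes of this role were higher, 3 lower and 6 not called, and their median log2 fold change was -0.118.

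**Figure D3:**
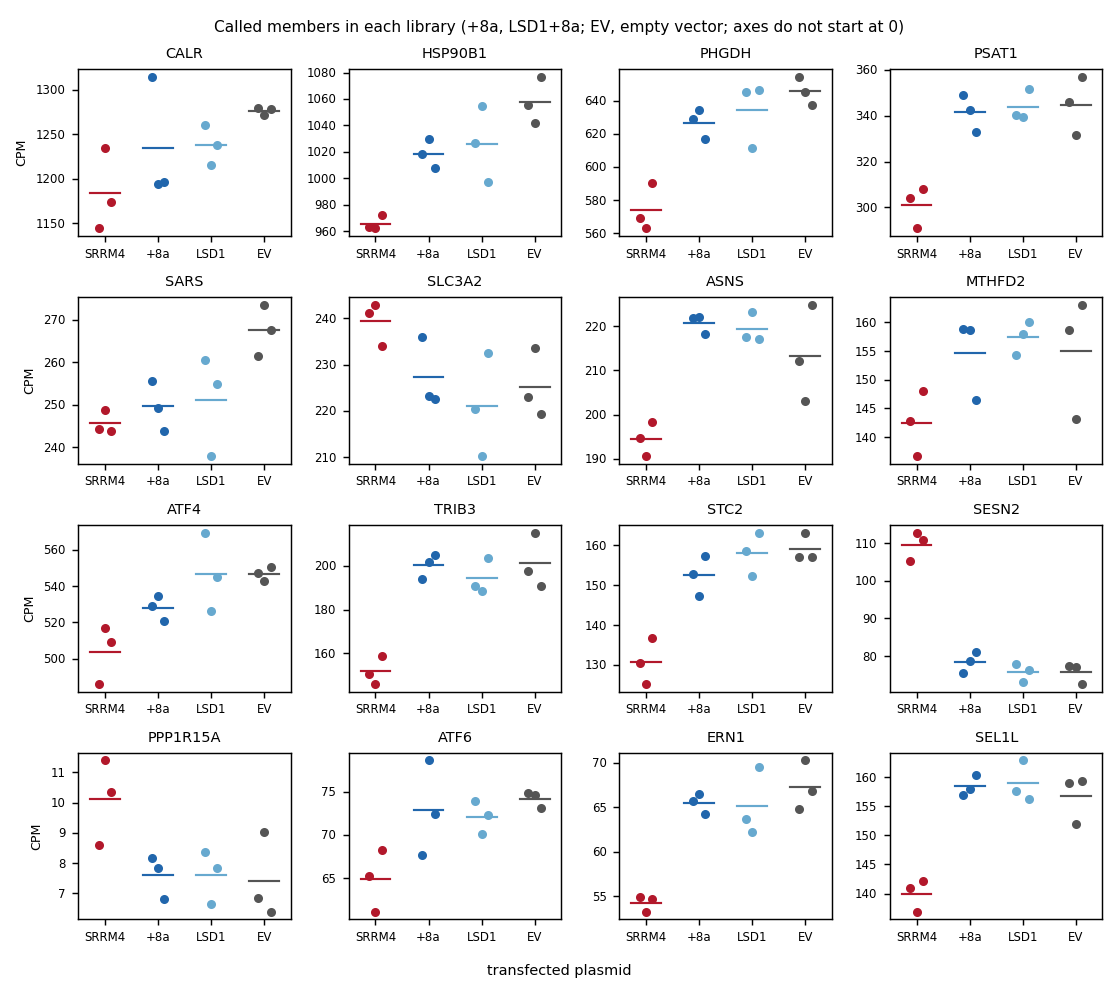
CPM of the 16 members called in at least 1 comparison, 1 point per library and a line at the mean of 3, with SRRM4, LSD1+8a (+8a), LSD1 and the empty vector (EV) from left to right on axes that do not start at 0. SESN2 stands above every other library with SRRM4, while TRIB3, STC2, ERN1, PSAT1, PHGDH, ASNS, SEL1L, HSP90B1 and ATF4 stand below. The SRRM4 libraries of PPP1R15A, CALR, SARS, ATF6, MTHFD2 and SLC3A2 overlap with other libraries.

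Of the ATF4 amino acid genes, 4 of 13 were lower with SRRM4 than with the empty vector, 0 higher and 9 not called, with a median log2 fold change of -0.095. The 4 were the serine synthesis enzymes PHGDH (its first step) and PSAT1 (its second), ASNS and SARS, which charges serine onto its tRNA. PHGDH had 569, 563 and 590.5 CPM with SRRM4, against 629, 634 and 617 CPM with LSD1+8a, 645, 611 and 647 CPM with LSD1 and 654, 645 and 638 CPM with the empty vector. PSAT1 had 304, 291 and 308 CPM with SRRM4, against 349, 342 and 333 CPM with LSD1+8a, 340.2, 339 and 352 CPM with LSD1 and 346, 332 and 357 CPM with the empty vector. For both, the SRRM4 libraries lay below all 9 others. PHGDH fell by 11.1% relative to the empty vector (log2 fold change -0.17 ± 0.030, adjusted p = 0.000188), with -0.13 over LSD1+8a (adjusted p = 0.00678) and -0.14 over LSD1 (adjusted p = 0.00189). PSAT1 fell by 12.7% (log2 fold change -0.20 ± 0.033, adjusted p = 7.66e-05), with -0.18 over LSD1+8a (adjusted p = 0.000285) and -0.19 over LSD1 (adjusted p = 0.000165). Without SRRM4 library 2, PHGDH was no longer called over LSD1+8a (adjusted p = 0.0502). PSPH, the last enzyme of serine synthesis, was not called (58.7, 54.6 and 54.9 CPM with SRRM4, against 56.9, 56.9 and 61.9 CPM with the empty vector).

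ASNS had 195, 191 and 198 CPM with SRRM4, against 222, 222 and 218 CPM with LSD1+8a, 218, 223 and 217 CPM with LSD1 and 212, 203 and 225 CPM with the empty vector. The SRRM4 libraries were again below all others, and the empty-vector libraries were the most spread. Its log2 fold change was -0.13 ± 0.035 over the empty vector (adjusted p = 0.0136), -0.18 over LSD1+8a (adjusted p = 0.000589) and -0.17 over LSD1 (adjusted p = 0.00127). The call over the empty vector ended without empty-vector library 3 (adjusted p = 0.13) or SRRM4 library 2 (adjusted p = 0.0726). SARS had 244, 249 and 244 CPM with SRRM4, against 256, 249 and 244 CPM with LSD1+8a, 260.5, 238 and 255 CPM with LSD1 and 261, 274 and 268 CPM with the empty vector. Here the empty-vector libraries stood above the 9 plasmid libraries, not the SRRM4 libraries below. The log2 fold change was -0.12 ± 0.034 over the empty vector (adjusted p = 0.0172), -0.024 over LSD1+8a and -0.032 over LSD1, and the call ended without SRRM4 library 1 (adjusted p = 0.069) or 3 (0.0719) or empty-vector library 2 (0.0729).

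A further pair was called by edgeR over LSD1 but not over the other groups. MTHFD2, a mitochondrial enzyme of one-carbon metabolism, had 143, 137 and 148 CPM with SRRM4, against 159, 159 and 147 CPM with LSD1+8a, 154, 158 and 160.1 CPM with LSD1 and 159, 143 and 163 CPM with the empty vector. SLC3A2, the heavy chain shared by the transporters SLC7A5 and SLC7A11, had 241, 243 and 234 CPM with SRRM4, against 236, 223 and 223 CPM with LSD1+8a, 221, 210.2 and 232 CPM with LSD1 and 223, 234 and 219 CPM with the empty vector. MTHFD2 was lower with SRRM4 than with LSD1 (log2 fold change -0.14 ± 0.044, adjusted p = 0.0425), and SLC3A2 higher (0.11 ± 0.036, adjusted p = 0.0483), each without overlap of those groups. Over the empty vector they had -0.12 (adjusted p = 0.0895) and 0.088 (adjusted p = 0.141), and over LSD1+8a -0.12 (adjusted p = 0.0959) and 0.075 (adjusted p = 0.224). The MTHFD2 call ended without SRRM4 library 1 (adjusted p = 0.102) or 2 (0.21), LSD1 library 1 (0.0572), 2 (0.12) or 3 (0.145), or empty-vector library 1 (0.0504), and in DESeq2 (0.101). The SLC3A2 call ended without SRRM4 library 1 (adjusted p = 0.135), 2 (0.165) or 3 (0.0626), LSD1+8a library 2 (0.051) or 3 (0.0583), LSD1 library 1 (0.107) or 2 (0.271), or empty-vector library 1 (0.0609), in DESeq2 (0.116) and limma-voom (0.051), and with upper-quartile factors (0.0662). The glycine and proline enzymes SHMT2 and PYCR1, the transporters SLC7A11 and SLC7A5 and the tRNA synthetases WARS and GARS were not called by edgeR over any of the other groups. SLC7A5 nonetheless had the lowest value of the list over the empty vector (log2 fold change -0.22). It had 15.0, 15.35 and 14.6 CPM with SRRM4, against 19.8, 17.3 and 15.30 CPM with the empty vector, and these libraries overlapped.

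Of the ER chaperones and folding enzymes, 2 of 13 were lower with SRRM4 than with the empty vector, 0 higher and 11 not called, with a median log2 fold change of -0.068. At an unadjusted p under 0.05, 6 of 13 were lower and 0 higher, as were 9.95% and 10.8% of all genes. HSP90B1 had 963, 962 and 972 CPM with SRRM4, against 1018, 1029.7 and 1008 CPM with LSD1+8a, 1026, 1055 and 997 CPM with LSD1 and 1055, 1042 and 1077 CPM with the empty vector. Its SRRM4 libraries were the lowest 3 of 12, and its log2 change was -0.13 ± 0.029 over the empty vector (adjusted p = 0.00232), -0.077 over LSD1+8a (adjusted p = 0.0997) and -0.088 over LSD1 (adjusted p = 0.0594). CALR had 1144, 1234 and 1174 CPM with SRRM4, against 1314, 1194 and 1196 CPM with LSD1+8a, 1261, 1215 and 1238 CPM with LSD1 and 1279, 1271 and 1278 CPM with the empty vector. The SRRM4 libraries overlapped those of both LSD1 forms but not those of the empty vector, over which the log2 fold change was -0.11 ± 0.034 (adjusted p = 0.0409). That call ended without empty-vector library 1 (adjusted p = 0.113), 2 (0.0677) or 3 (0.0942), without SRRM4 library 1 (0.225) or 3 (0.132), and without LSD1 library 3 (0.0545).

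HSPA5, the chaperone most used to read out the unfolded protein response, had 757, 797 and 772 CPM with SRRM4, against 791, 734 and 749 CPM with LSD1+8a, 785, 772 and 786 CPM with LSD1 and 798, 763 and 805 CPM with the empty vector. All 4 groups overlapped, and the log2 fold change was -0.025 ± 0.031 over the empty vector (adjusted p = 0.712), 0.032 over LSD1+8a and -0.011 over LSD1. PDIA4, a disulfide isomerase, had SRRM4 libraries (251, 265 and 254 CPM) below all 9 others without being called (log2 fold change -0.080 over the empty vector, adjusted p = 0.107). The lectin chaperone CANX, the isomerases PDIA3 and PDIA6, the nucleotide exchange factor HYOU1, the J proteins DNAJB9 and DNAJC3, and SDF2L1, MANF and CRELD2 were not called by edgeR in any comparison.

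Among the sensors, 2 of 4 genes were lower with SRRM4 than with the empty vector and 2 not called, with a median log2 fold change of -0.14. ERN1 had 54.9, 53.2 and 54.7 CPM with SRRM4, against 65.7, 66.5 and 64.2 CPM with LSD1+8a, 63.7, 62.2 and 69.5 CPM with LSD1 and 64.8, 70.3 and 66.8 CPM with the empty vector. The SRRM4 libraries were closely grouped and below all others, and ERN1 changed by -0.31 ± 0.051 (log2, SE) over the empty vector (adjusted p = 4.34e-05), -0.27 over LSD1+8a (adjusted p = 0.000468) and -0.26 over LSD1 (adjusted p = 0.000791). On the TPM scale the differences were smaller and not called, at -0.17 over the empty vector (adjusted p = 0.46), -0.16 over LSD1+8a (adjusted p = 0.48) and -0.20 over LSD1 (adjusted p = 0.381), all as differences of log2(TPM + 1). ATF6 had 65.3, 61.1 and 68.3 CPM with SRRM4, against 67.7, 78.6 and 72.4 CPM with LSD1+8a, 73.9, 70.1 and 72.2 CPM with LSD1 and 74.8, 74.6 and 73.1 CPM with the empty vector. Its SRRM4 and LSD1+8a libraries overlapped. The log2 fold change of ATF6 was -0.19 ± 0.051 over the empty vector (adjusted p = 0.0153), -0.17 over LSD1+8a (adjusted p = 0.042) and -0.15 over LSD1 (adjusted p = 0.0739). DESeq2 called neither of the first 2 (adjusted p = 0.0625 and 0.142), and a fit of SRRM4 and LSD1+8a alone did not give the second (0.0584). The first ended without SRRM4 library 2 (0.122) or empty-vector library 1 (0.0555), and the second without SRRM4 library 1 (0.0951) or 2 (0.234), empty-vector library 1 (0.051), or LSD1+8a library 3 (0.0925) or 2 (0.292, with the value down to -0.11).

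XBP1, the factor whose mRNA IRE1 splices, had 155, 157 and 149.7 CPM with SRRM4, against 161, 163 and 160.1 CPM with LSD1+8a, 162, 157 and 159.8 CPM with LSD1 and 163, 165 and 165 CPM with the empty vector. The SRRM4 libraries lay below those of the empty vector and overlapped those of LSD1, and no comparison was called (log2 fold change -0.093 ± 0.034 over the empty vector, adjusted p = 0.088). Gene counts do not separate its spliced and unspliced forms. EIF2AK3 was not called (37.1 ± 1.95 CPM with SRRM4 and 36.0 ± 0.908 CPM with the empty vector, SD, n = 3 each).

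In ER-associated degradation, which returns misfolded proteins to the cytosol, 1 of 3 genes was lower. SEL1L, the scaffold of the HRD1 ubiquitin ligase, had 141, 137 and 142 CPM with SRRM4, against 157, 158 and 160.3 CPM with LSD1+8a, 158, 163 and 156 CPM with LSD1 and 159, 152 and 159 CPM with the empty vector. The SRRM4 libraries were below all others, and SEL1L changed by -0.16 ± 0.035 (log2, SE) over the empty vector (adjusted p = 0.00225), -0.18 over LSD1+8a (adjusted p = 0.000945) and -0.18 over LSD1 (adjusted p = 0.000791). On the log2(TPM + 1) scale the difference over the empty vector was larger but not called (-0.24, adjusted p = 0.092). HERPUD1, which helps assemble that complex, lay below all 9 other libraries without being called (127, 129.6 and 131 CPM with SRRM4, against 136, 133 and 138 CPM with the empty vector, adjusted p = 0.24), and the mannosidase-like EDEM1 was not called.

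The contrast of chaperones with amino acid genes was read as the mean of each list in each library, on the log2 CPM scale relative to the empty-vector mean. The amino acid list stood at -0.077, -0.110 and -0.083 with SRRM4, against 0.014, -0.020 and -0.039 with LSD1+8a, 0.016, -0.022 and 0.018 with LSD1 and 0.017, -0.030 and 0.012 with the empty vector. The 3 SRRM4 libraries were the lowest 3 of 12. The chaperone list stood at -0.086, -0.027 and -0.047 with SRRM4, against -0.014, -0.096 and -0.088 with LSD1+8a, -0.023, -0.00044 and -0.0079 with LSD1 and -0.0041, -0.012 and 0.016 with the empty vector. It was thus below the empty vector in both SRRM4 and LSD1+8a libraries, which overlapped each other. The difference, chaperones minus amino acid genes, was -0.0097, 0.083 and 0.036 with SRRM4, against -0.028, -0.076 and -0.049 with LSD1+8a, -0.039, 0.021 and -0.026 with LSD1 and -0.022, 0.018 and 0.0032 with the empty vector. SRRM4 and empty-vector libraries overlapped in this difference, so that the fall of the 2 lists with SRRM4 was not separated beyond the spread of libraries. SRRM4 and LSD1+8a did not overlap, with a difference of 0.087 between the groups (SRRM4 minus LSD1+8a), or 0.045 with list medians in place of means. The nearest libraries were at -0.0097 (SRRM4) and -0.028 (LSD1+8a). The LSD1+8a libraries also lay below all 3 empty-vector libraries. Relative to the empty vector, the group mean of this difference was -0.051 with LSD1+8a and 0.036 with SRRM4. How often groups of 3 libraries fail to overlap in such a difference was not counted. No p is given, since the members were chosen with results of these data known.

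**Figure D4:**
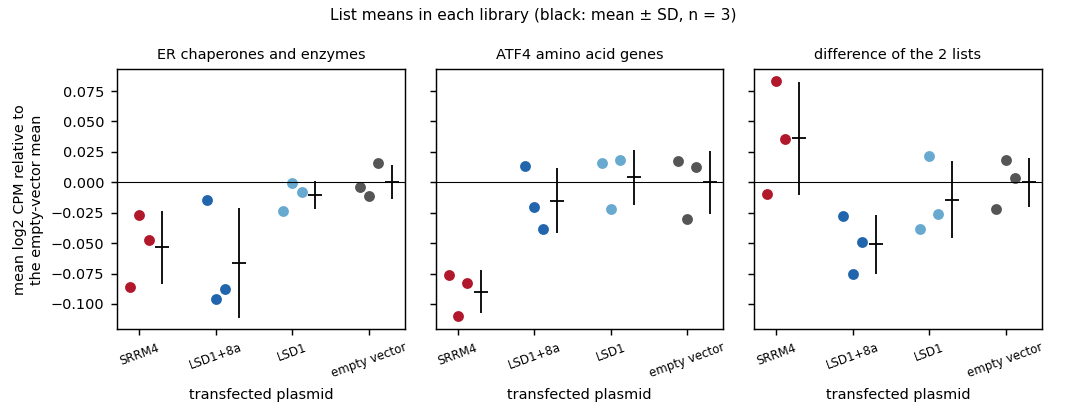
Mean log2 CPM of the 13 chaperones, of the 13 amino acid genes, and the first minus the second, per library relative to the empty-vector mean, with SRRM4, LSD1+8a, LSD1 and the empty vector from left to right and black bars for mean ± SD (n = 3). The amino acid list is lowest in the 3 SRRM4 libraries (-0.110 to -0.077), and in the difference SRRM4 overlaps the empty vector but not LSD1+8a. The LSD1+8a libraries lie below those of the empty vector in the difference as well.

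Over LSD1+8a, SRRM4 libraries had 9 of 44 members called, 1 higher (SESN2) and 8 lower, against 7.58% of all genes (4.42% higher and 3.17% lower), with a module median of -0.034 against -0.0027 over all genes. Over LSD1 there were 11, of which 2 were higher (SESN2 and SLC3A2) and 9 lower, against 7.05% of all genes (4.38% higher and 2.67% lower), with a median of -0.065 against -0.0039. None of the 13 chaperones was called by edgeR in either comparison. At an unadjusted p under 0.05 they counted 2 higher and 1 lower over LSD1+8a (11.0% and 10.2% of all genes), and 0 higher and 3 lower over LSD1 (11.0% and 9.98% of all genes). DESeq2 and limma-voom each called 0 over LSD1+8a and 1 lower over LSD1, which was HSP90B1 (adjusted p = 0.0238 and 0.037), and limma-trend on TPM 0 in both. The 13 amino acid genes had 3 lower over LSD1+8a (ASNS, PSAT1 and PHGDH), and 4 lower and 1 higher over LSD1. The 3 SRRM4 comparisons share the SRRM4 libraries and are not independent of each other.

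Neither form of LSD1 gave a call in the module. LSD1+8a over the empty vector called 0 of 44 members in edgeR, against 0.346% of all genes (0.285% higher and 0.0615% lower), and 5 members, all lower, had an unadjusted p under 0.05 (of all genes, 3.23% were lower and 3.59% higher). DESeq2, limma-voom and limma-trend on TPM also called 0. Its module median was -0.030 against 0.00092 over all genes, and values ran from -0.20 to 0.053. All 13 chaperones had a value below 0, with a median of -0.056, while 49.6% of all genes had a value below 0. The most extreme was SDF2L1, a folding factor of the ER, with 29.7, 28.9 and 28.5 CPM with LSD1+8a, against 34.3, 35.1 and 31.0 CPM with the empty vector. These groups did not overlap, yet the adjusted p was 0.348 (unadjusted 0.00326; log2 fold change -0.20 ± 0.065). In 9 of 44 members the LSD1+8a libraries all lay below those of the empty vector, against 5.64% of all genes, and in 0 above, against 6.12%.

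LSD1 over the empty vector also called 0 of 44 members in edgeR, against 0.1% of all genes (0.0462% higher and 0.0538% lower), and CANX and SARS, both lower, had an unadjusted p under 0.05 (of all genes, 2.8% were lower and 3.09% higher). DESeq2, limma-voom and limma-trend on TPM called 0, DESeq2 giving no adjusted p for 29 of the 44. The module median was 0.00019 against 0.0019 over all genes, with 22 members above 0 and 22 below. The LSD1 libraries all lay below those of the empty vector in 4 members, against 6.21% of all genes, and above in 0, against 5.48%. LSD1+8a over LSD1 called 0 in edgeR, against 0.323% of all genes (0.208% higher and 0.115% lower), and 5 members, all lower, had an unadjusted p under 0.05 (of all genes, 3.25% were lower and 2.96% higher), and 0 in the other 3 tools. In 6 members the LSD1+8a libraries all lay below those of LSD1, against 5.51% of all genes, and in 0 above, against 6.16%. SDF2L1 had the lowest fold change again, at 29.7, 28.9 and 28.5 CPM with LSD1+8a, against 33.2, 31.9 and 35.4 CPM with LSD1 (log2 fold change -0.21 ± 0.066, adjusted p = 0.365). KDM1A was several times higher with LSD1+8a than with LSD1, so that the 2 forms are not compared at a matched level.

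Other genes of these pathways, 113 in 7 lists, had 1 higher and 14 lower with SRRM4 than with the empty vector (median -0.041), against 4.47% higher and 3.22% lower of all genes. DESeq2 called 1 higher and 12 lower, and limma-trend on TPM 1 higher and 5 lower. The shares of all genes that these 2 tools called were not counted here, and those just given are from edgeR. Of 20 other ATF4 targets, 1 was higher and 6 lower, with a median of -0.11. PCK2, a mitochondrial enzyme of gluconeogenesis, fell by 0.23 on the log2 scale (adjusted p = 1.22e-06), the glutamine transporter SLC1A5 by 0.21 (adjusted p = 9.3e-05), the tRNA exporter XPOT by 0.18 (adjusted p = 0.00019) and the glycine transporter SLC6A9 by 0.27 (adjusted p = 0.00186). The 1 that was higher, named after its values were seen, was ATF3, a stress-induced factor (0.47 ± 0.092, adjusted p = 0.00874). Of 17 other cytosolic tRNA synthetases, 3 were lower (AARS, EPRS and LARS, at -0.14 each) and 0 higher. The 20 other ER folding and disulfide enzymes had 0 called in edgeR, and 9 with an unadjusted p under 0.05, all lower, as were 9.95% of all genes (P4HB, the main disulfide isomerase, had -0.088 and an adjusted p of 0.0616), while DESeq2 and limma-voom called 1, P4HB itself (adjusted p = 0.0367 and 0.0402), and limma-trend on TPM 0. The 20 genes of the translocon and secretory pathway had SEC63 (-0.26) and SSR2 (-0.15) lower, the 17 other genes of ER-associated degradation had SYVN1 (the HRD1 ligase, -0.15) lower, and the 7 ER membrane factors and proteases had CREB3L4 (-0.21) and CREB3L2 (-0.18) lower. DESeq2 did not call SYVN1 (adjusted p = 0.103), CREB3L2 (adjusted p = 0.147) or the amino acid transporter SLC7A1 (adjusted p = 0.105), an ATF4 target named after its values were seen, and CREB3L2 was at -0.067 on the log2(TPM + 1) scale. The 12 genes of eIF2, its kinases and eIF2B had 0 called in edgeR, DESeq2, limma-voom and limma-trend on TPM. At an unadjusted p under 0.05 they had 2 higher and 2 lower, as were 10.8% and 9.95% of all genes. LSD1+8a over the empty vector called 0 of the 113 in edgeR, DESeq2, limma-voom and limma-trend on TPM. At an unadjusted p under 0.05 there were 2 higher and 6 lower, as were 3.59% and 3.23% of all genes.

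In the authors' deposited table, which compares each plasmid with the empty vector, 1 member was higher and 11 lower with SRRM4, and 0 were called with LSD1+8a. That table, the authors' deposited one, called 0 with LSD1 and gave no adjusted p for 29 of the 44. The share of all genes called in it was not counted here, so these counts have no share to be set against.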

How the data were processed

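RNA was measured as whole-number counts per gene that the authors deposited. The tools listed, without their steps, in the notes of the submitters are the aligner STAR (2.5.3a) and the quantifier RSEM (1.2.31), with build hg19. The authors also deposited TPM values and, in a table of comparisons with the empty vector, log2 fold changes with adjusted p-values. All 13001 genes were tested on the counts in 1 edgeR 4.0.16 quasi-likelihood fit (robust, TMM factors, R 4.3.3) over the 12 libraries and 4 groups, with no filter removing a gene and Benjamini-Hochberg adjustment over all genes; called means an adjusted p under 0.05. CPM are TMM-scaled. Alternatives were other factors, a stricter filter, DESeq2 1.42.0, limma 3.58.1 (voom; trend on log2(TPM + 1) and log2(TPM + 0.1)), a block for the replicate number, 2-group fits and leaving out each library. Every library is given for members called in any of 6 comparisons and for ATF4, HSPA5, XBP1, DDIT3 and ASNS, and other pathway lists name up to 4 genes by p, with exceptions stated. Genes are named as the files spell them, older symbols (SARS, GARS, WARS) included. The members, lists and rules were chosen with earlier results of these data known. Library totals bound the precision of the counts. The biological coefficient of variation, which measures the spread between libraries of a group beyond counting noise, was 2.98%. Replicates of a group differed by more than counting noise (chi-square over degrees of freedom 1.44 to 2.88). ASNS, PSAT1, MTHFD2 and ATF4 have 4, 4, 7 and 4 pseudogenes by name in the GENCODE annotation, and how their reads were shared out was not tested. 1 luminal marker beyond the 10 used was left out of the marker sums and is not reported here.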

Additional observations from a re-analysis of the deposited data

How the results depend on the processing

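Of 34 calls of a member, 10 stood under every alternative and 24 were lost under at least 1. The counts of members called, 14 for SRRM4 against the empty vector, 9 against LSD1+8a and 11 against LSD1, moved to 3, 4 and 6 on log2(TPM + 1) and log2(TPM + 0.1) with limma-trend; the cause was not tested. They ranged from 10 to 14, 7 to 11 and 8 to 14 when 1 library was left out, and were 16, 9 and 13 with upper-quartile factors. The shares of all genes called under the alternatives were not counted, so the counts under them have no share to be set against. Comparisons without SRRM4 stayed at 0 when 1 library was left out. The difference of the lists, chaperones minus amino acid genes, for SRRM4 against LSD1+8a was 0.087 with means, 0.045 with medians and 0.064 to 0.110 with 1 library left out. For SRRM4 it ranged from 0.014 to 0.060 against the empty vector and 0.028 to 0.075 against LSD1. For LSD1+8a it ranged from -0.063 to -0.037 against the empty vector and -0.048 to -0.018 against LSD1, and for LSD1 against the empty vector from -0.032 to -0.0018. Replicate numbers did not pair the libraries (18 same-number correlations of -0.163 to 0.143, 1 over 0.1), and with the replicate number as a block 13, 8 and 10 members were called (the lost calls were CALR against the empty vector, ATF6 against LSD1+8a and SLC3A2 against LSD1, with adjusted p of 0.0581, 0.0598 and 0.0704) and the difference for SRRM4 against the empty vector was 0.037. The least abundant member, PPP1R15A, had the largest error among the called members (SE 0.137 on the log2 scale).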
